A study of Mus musculus with 12 samples.

Results

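Ribosome biogenesis and RNA polymerase I (Pol I) are described here through 54 genes, chosen by symbol from the 57180 genes of the study and sorted into 10 functional steps that run from Pol I to the maturation of each ribosomal subunit. The RNA came from a male mouse embryonic stem cell (ESC) line, E14, which is 1 chosen clone that carries a doxycycline-inducible CRISPR interference (CRISPRi) system at the Tigre locus. Both lines compared hold this system and a piggyBac guide vector under hygromycin selection. Neg cells carry control (negative/scramble) guides, and 3xKD cells carry guides against Pcx, Me1 and Me2, which encode pyruvate carboxylase and malic enzymes. Each line was sequenced as naive ESCs in N2B27 medium with 2i and LIF and as epiblast-like cells (EpiLCs) at day 2, grown from the ESCs in FAX medium (FGF2, activin A and XAV939), with 3 libraries in each of the 4 groups. All cultures were kept at low oxygen under puromycin, blasticidin and hygromycin. The study describes the sequenced cells of both lines and states as treated with doxycycline, while the labels name no agent. Groups follow the sample titles; a further cell-type field of the labels marks every Neg library as ESC and every 3xKD library as EpiLC, against the titles and against the naive markers given below. The study's question was how the repression of these enzymes bears on the exit from naive pluripotency, and the comparisons here are 3xKD against Neg within each state, EpiLCs against ESCs within each line, and the difference of the 3xKD effect between the states. The study states biological triplicates for its experiments in general, and the labels do not say how these replicates were grown. The p-values measure the spread between the libraries of a group. The study lists 1 line each for Neg and 3xKD, transfected with different guide vectors. Any other difference between these lines cannot be told apart here from the repression, also where a 3xKD effect is named.

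As background, Pol I transcribes the ribosomal DNA repeats in the nucleolus into a long precursor RNA, after UBF (Ubtf), the SL1 complex (Taf1a to Taf1d with TBP) and Rrn3 have brought it to the promoter. Box C/D and box H/ACA ribonucleoproteins (snoRNPs), guided by small nucleolar RNAs, methylate and pseudouridylate the precursor, the small subunit (SSU) processome folds and cuts it, and further factors mature the 40S and 60S subunits. Pluripotent cells divide quickly and are known for large nucleoli and high ribosome production.

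Libraries held 11221023 to 19652197 estimated counts, and all 54 genes passed the filter of at least 10 counts over the 12 libraries, with a lowest count of 46 in any library, for Taf1a. Pcx, Me1 and Me2 were lower in each 3xKD library than in any Neg library of its state, at log2 fold changes between -1.14 and -0.89. Naive markers summed to 1074 to 1481 TPM (transcripts scaled to a fixed total per library) in Neg ESCs, 726 to 902 in 3xKD ESCs, 87.4 to 106 in Neg EpiLCs and 105 to 139 in 3xKD EpiLCs. Formative markers summed to 48.8 to 61.5, 57.2 to 70.2, 924 to 971 and 456 to 536 TPM in the same groups. By these sums the 2 lines lay apart for naive markers in ESCs and for formative markers in EpiLCs. Gene by gene, naive markers differed in EpiLCs too. In 3xKD against Neg EpiLCs 7 of the 8 had a log2 fold change above 0, with a median of 0.46. At an adjusted p under 0.01 (edgeR) 5 were higher and 0 lower, against 14.3% and 15.6% of all genes tested. Markers shared by both states summed to 572 to 782.5, 501.5 to 594, 1104 to 1255 and 796 to 1039 TPM, apart in EpiLCs alone. Markers of primitive endoderm, fibroblast feeders and mesoderm summed to at most 9.996, 7.90 and 1.65 TPM in any library. The part of these marker differences in the results below was not tested, and in bulk RNA fewer cells of a type and less RNA per cell cannot be told apart.

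Most of the 54 genes were lower in 3xKD cells. At an adjusted p under 0.01 (edgeR quasi-likelihood test, Benjamini-Hochberg over 25446 genes), for which "fell" and "rose" are used here, 44 fell and 3 rose in ESCs, against 16% and 15.6% of all genes tested, and 45 fell and 2 rose in EpiLCs, against 15.6% and 14.3%. With the fold limit of the study added (absolute log2 fold change above 0.58), a gene is called: 10 were called lower and 1 higher in ESCs, where 6.76% and 8.5% of all genes were, and 17 were called lower in EpiLCs, where 5.35% were. No member was called higher in EpiLCs by edgeR or by DESeq2, with 7.88% of all genes called so and 2 members higher at an unadjusted p under 0.05. CPM (counts per library size scaled by TMM factors) of 45 members in ESCs lay in every 3xKD library below every Neg library, as did those of 48 members in EpiLCs, against 23.8% and 23.1% of all genes. Among the 15032 genes that average at least 1 CPM, as all 54 members do, the shares that fell were 26.1% and 25.9%, and the shares called lower 10.53% and 8.57%. The median log2 fold change over the members was -0.36 in ESCs and -0.41 in EpiLCs, and that of all genes tested was 0.026 and 0.032. Across the 54 members the 2 sets of fold changes, which share no library, had a Pearson correlation of 0.887 and a Spearman correlation of 0.842, given as a description.

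The steps differed in how far their medians lay below 0. Each step holds the chosen members only. Further proteins of UTP-A, UTP-B and box C/D snoRNPs are counted with the genes of the 40S path below, so medians of these steps cover part of each complex. The UTP-A members had the lowest median in each state, -0.54 (SD over libraries 0.059, n = 3 per group) in ESCs and -0.60 (SD 0.069) in EpiLCs, and all 5 fell in both. The 40S and 60S maturation factors followed in EpiLCs with -0.54 and -0.48, and stood at -0.45 and -0.40 in ESCs. Box C/D proteins had a median of -0.52 in ESCs and -0.34 in EpiLCs, Pol I subunits -0.35 and -0.44, Pol I initiation factors -0.37 and -0.27, and the nucleolar scaffold proteins -0.24 and -0.44. UTP-B stood at -0.33 and -0.25, and the other SSU processome factors at -0.37 and -0.25. Box H/ACA proteins were split, with 2 genes down and 2 up in each state, and their median of 0.018 (SD 0.041) in ESCs and -0.043 (SD 0.079) in EpiLCs was within the library spread of 0. SDs of the other medians were 0.028 to 0.085. Each SD combines the spread between the libraries of the 2 lines. All steps were read from the same libraries, so these SDs cannot tell whether 2 steps differ. They also leave out the spread among the genes of a step, which ran from -1.59 to 0.18 for the initiation factors in ESCs. No step was tested against another, and the order is a description. With transcript-length offsets the UTP-A median moved to -0.40 in ESCs and -0.45 in EpiLCs, and 40S maturation was then the lowest in both (-0.49 and -0.55). Without 3xKD ESC replicate 3 box C/D proteins were the lowest in ESCs at -0.54, with UTP-A at -0.53.

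**Figure D1:**
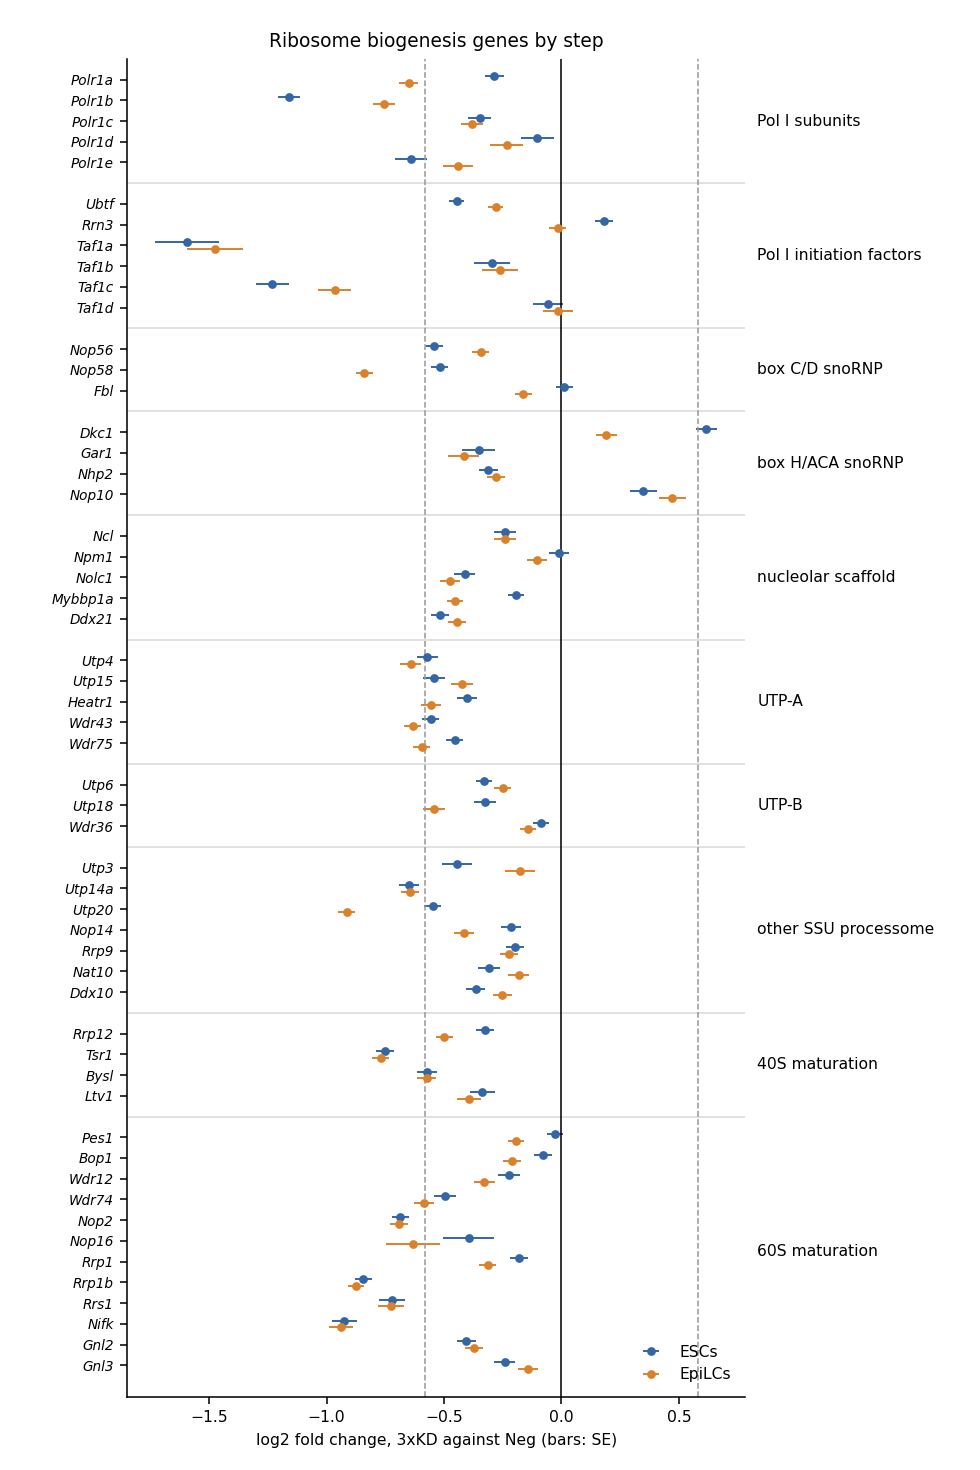
Log2 fold change of each of the 54 genes in 3xKD against Neg cells, by step, in ESCs (blue) and EpiLCs (orange), with bars for the SE and dashed lines at the fold limit of 0.58. Taf1a, at -1.59 and -1.48, lies farthest to the left, and Dkc1 and Nop10 lie to the right of 0 in both states.

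Among the Pol I subunits, 4 of 5 fell in each state and Polr1b changed most. Polr1b (ENSMUSG00000027395, chr2:128942903-128970214 on GRCm39), which encodes the second largest subunit and part of the catalytic centre, was measured at 113, 128 and 125 CPM in the Neg ESC libraries and 54.2, 53.96 and 55.7 CPM in the 3xKD ESC libraries. EpiLCs had 160.4, 163 and 168 CPM in Neg and 102, 95.1 and 93.8 CPM in 3xKD libraries. The 3xKD libraries were below the Neg libraries in both states without overlap, and the 3xKD EpiLC values came close to, but stayed under, those of Neg ESCs. Its log2 fold change was -1.16 ± 0.047 (SE, adjusted p = 1.71e-11) in ESCs and -0.76 ± 0.045 (adjusted p = 1.25e-09) in EpiLCs, where transcript-length offsets gave -0.52 and ended the call. Polr1a, the largest subunit, fell by 18.02% in ESCs (log2 fold change -0.29 ± 0.041) and by 36.2% in EpiLCs (-0.65 ± 0.040), where it was called lower and where length offsets, at -0.52, and counts of coding transcripts alone, at -0.54, left it under the fold limit. In ESCs coding transcripts alone gave -0.53 for Polr1a, near their value in EpiLCs. Polr1e, one of the subunits found in Pol I but not in the other polymerases, was called lower in ESCs at -0.64 ± 0.068 and fell by 26.3% in EpiLCs, but coding transcripts alone gave -0.57 in ESCs. Polr1c, a subunit shared with Pol III, fell by 21.4% and 23.2%. Polr1d, the other shared subunit, had the smallest change of the 5, -0.10 ± 0.071 in ESCs (adjusted p = 0.283) and -0.23 ± 0.071 in EpiLCs (adjusted p = 0.0152), and did not pass the test.

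The initiation factors held both the largest decreases of all 54 genes and some of the smallest. Taf1a (ENSMUSG00000072258, chr1:183170286-183193234), a subunit of the promoter-binding SL1 complex and the gene with the lowest level per length of the 54, at a mean of 2.93 TPM, was measured at 9.84, 9.63 and 9.84 CPM in the Neg ESC libraries and 2.83, 3.17 and 3.72 CPM in the 3xKD ESC libraries. Its values in EpiLCs were 16.9, 16.2 and 18.4 CPM in Neg and 6.45, 4.99 and 7.06 CPM in 3xKD libraries. Every 3xKD library was under every Neg library of either state, so that 3xKD EpiLCs had less Taf1a RNA than Neg ESCs. It fell by 66.8% in ESCs (log2 fold change -1.59 ± 0.14, adjusted p = 6.59e-08) and by 64.05% in EpiLCs (-1.48 ± 0.12, adjusted p = 4.26e-08). Taf1c (ENSMUSG00000031832, chr8:120324585-120331986), a further SL1 subunit, was measured at 33.8, 36.4 and 36.3 CPM in the Neg ESC libraries and 15.2, 16.6 and 13.6 CPM in the 3xKD ESC libraries. The EpiLC values were 32.3, 34.4 and 36.1 CPM in Neg and 17.3, 17.6 and 17.7 CPM in 3xKD libraries. The Neg values of the 2 states overlapped, and the 3xKD values of each state lay below all of them. Its log2 fold change was -1.23 ± 0.072 in ESCs and -0.97 ± 0.071 in EpiLCs.

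The other initiation factors changed less. Taf1b, also in SL1, fell by 18.5% in ESCs and had a log2 fold change of -0.26 ± 0.077 in EpiLCs (adjusted p = 0.0119), which missed the limit. Ubtf, which binds and opens ribosomal DNA, fell by 26.6% and 17.6%. Taf1d, the last SL1 subunit and a host of small nucleolar RNAs, was measured at 347, 325 and 377 CPM in the Neg ESC libraries and 351, 327 and 332 CPM in the 3xKD ESC libraries. After the transition it was at 477, 419.8 and 429 CPM in Neg and 398, 447 and 468 CPM in 3xKD libraries. The groups overlapped in both states, and its log2 fold changes of -0.056 ± 0.063 and -0.015 ± 0.063 were the smallest on average of the 54. Counts of its coding transcripts alone gave -0.16 in ESCs (adjusted p = 0.226) and -0.44 in EpiLCs (adjusted p = 0.00248). Coding transcripts held a mean of 25.4% of its TPM in Neg EpiLCs and 19% in 3xKD EpiLCs, without overlap. Rrn3 (ENSMUSG00000022682, chr16:13598376-13635974), which ties Pol I to SL1, was measured at 246, 251 and 257 CPM in the Neg ESC libraries and 285, 285 and 285 CPM in the 3xKD ESC libraries. EpiLCs had 462, 425 and 454 CPM in Neg and 456, 446 and 423 CPM in 3xKD libraries. The 3xKD ESC libraries were all above the Neg ESC libraries, whereas the EpiLC groups overlapped. It rose by 13.3% in ESCs (log2 fold change 0.18 ± 0.038, adjusted p = 0.000907) and stood at -0.017 ± 0.037 in EpiLCs. Rrn3 is the one member on chromosome 16, and genes of chromosome 16 with a mean of at least 1 CPM shifted by a median of 0.30 (log2) in each state, where the other chromosomes lay between -0.052 and 0.064. The part of this in the value of Rrn3 was not tested.

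The stretches of 250 bases before the RefSeq start (GRCm38.p6) are shown for Taf1a, Taf1c and Polr1b, the 3 genes with the largest decreases averaged over the states, for Nop2, whose stretch holds both an E-box and an ETS motif, and for Dkc1, which rose, with capitals marking E-box (CACGTG) and ETS (CCGGAAG, either strand) matches. Taf1a and Taf1c have a further listed start, and the window of the upstream one is shown.
Taf1a, chr1:183388635-183388884, + strand: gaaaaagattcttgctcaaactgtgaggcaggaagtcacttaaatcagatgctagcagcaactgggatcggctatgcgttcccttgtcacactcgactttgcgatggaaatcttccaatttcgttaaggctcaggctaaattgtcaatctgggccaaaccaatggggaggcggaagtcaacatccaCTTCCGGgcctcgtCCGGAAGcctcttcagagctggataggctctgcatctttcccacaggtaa
Taf1c, chr8:119605207-119605456, - strand: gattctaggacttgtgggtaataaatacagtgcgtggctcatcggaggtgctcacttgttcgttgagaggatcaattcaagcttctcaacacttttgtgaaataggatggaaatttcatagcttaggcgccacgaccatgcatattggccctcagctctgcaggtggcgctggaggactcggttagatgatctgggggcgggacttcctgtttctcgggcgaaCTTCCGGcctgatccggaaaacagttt
Polr1b, chr2:129100746-129100995, + strand: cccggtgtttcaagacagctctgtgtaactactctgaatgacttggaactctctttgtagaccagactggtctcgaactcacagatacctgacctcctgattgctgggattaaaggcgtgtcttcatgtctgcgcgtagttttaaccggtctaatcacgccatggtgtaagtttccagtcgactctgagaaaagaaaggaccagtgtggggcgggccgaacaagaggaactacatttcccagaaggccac
Nop2, chr6:125131633-125131882, + strand: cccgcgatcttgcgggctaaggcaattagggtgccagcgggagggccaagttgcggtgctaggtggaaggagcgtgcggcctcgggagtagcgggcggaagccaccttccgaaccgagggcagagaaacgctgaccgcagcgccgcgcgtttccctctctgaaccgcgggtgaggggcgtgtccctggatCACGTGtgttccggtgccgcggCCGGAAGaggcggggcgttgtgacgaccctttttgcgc
Dkc1, chrX:75095604-75095853, + strand: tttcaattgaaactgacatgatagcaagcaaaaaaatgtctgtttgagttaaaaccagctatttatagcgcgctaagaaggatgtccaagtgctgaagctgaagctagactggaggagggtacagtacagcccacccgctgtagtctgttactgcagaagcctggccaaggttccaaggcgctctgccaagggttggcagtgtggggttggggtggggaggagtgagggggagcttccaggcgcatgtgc
The 5' most of the 2 ETS matches of Taf1a starts 64 bases before the start site, that of Taf1c 27 bases, and the E-box and ETS matches of Nop2 start 60 and 38 bases before it. Of the 54 genes 46 had a RefSeq window, 56 windows in all. Over the full 300-base windows, which add 50 bases after the start, ETS matches were found in 33.9% of member windows and in 8.86% of all 32851 windows (11.6% of those of coding genes), and the E-box in 17.9% against 7.15% (7.84%). SP motifs (GGGCGG) were found in 66.1% of member windows, 35.7% of all windows and 46.2% of those of coding genes. For NF-Y (CCAAT) the shares were 33.9%, 37.4% and 38.2%, in the same order. The TATA motif (TATAAA) was in 3.57%, 13.6% and 12.6%. The YY1 motif (AAGATGG) was in 1.79%, 6.34% and 6.24%. All were searched on both strands, and none of the motifs contains another. The members with an ETS match had median log2 fold changes of -0.41 in ESCs and -0.46 in EpiLCs, and those without one -0.35 and -0.42. For the 33 genes with an SP match the medians were -0.49 and -0.47, against -0.29 and -0.23 without. For the 10 with an E-box they were -0.44 and -0.59, against -0.40 and -0.42. A match describes the letters only.

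Box C/D snoRNPs carry the core proteins Nop56, Nop58 and Fbl, of which Fbl (fibrillarin) is the methyltransferase. Nop58 (ENSMUSG00000026020, chr1:59724106-59758203) was measured at 292, 295 and 287 CPM in the Neg ESC libraries and 204, 198 and 208 CPM in the 3xKD ESC libraries. Its values in EpiLCs were 451, 415 and 449 CPM in Neg and 243, 244 and 249 CPM in 3xKD libraries. Both 3xKD groups were under both Neg groups, and the gap was wider in EpiLCs. It fell by 30.2% in ESCs (log2 fold change -0.52 ± 0.036) and was called lower in EpiLCs at -0.84 ± 0.036. Nop56 fell by 31.3% in ESCs (-0.54 ± 0.035, and -0.63 and past the limit with coding transcripts alone) and by 21.2% in EpiLCs (-0.34 ± 0.035). Fbl differed from both: it was measured at 185, 182 and 172 CPM in the Neg ESC libraries and 184, 182 and 177 CPM in the 3xKD ESC libraries. The EpiLC values were 205, 193 and 202 CPM in Neg and 179.5, 176 and 181 CPM in 3xKD libraries. The ESC groups overlapped and the EpiLC groups did not. Its log2 fold change was 0.012 ± 0.035 in ESCs (adjusted p = 0.837) and -0.16 ± 0.035 in EpiLCs (adjusted p = 0.00132).

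Box H/ACA snoRNPs were the one step with genes that rose in both states. Dkc1 (ENSMUSG00000031403, chrX:74139460-74155456), the pseudouridine synthase dyskerin, was measured at 237, 246 and 234 CPM in the Neg ESC libraries and 375, 355 and 369 CPM in the 3xKD ESC libraries. After the transition it was at 299, 267 and 292 CPM in Neg and 326, 312 and 342 CPM in 3xKD libraries. The 3xKD libraries were above the Neg libraries in each state, by more in ESCs. It rose by 53.3% in ESCs (log2 fold change 0.62 ± 0.044, adjusted p = 9.39e-09), where it was the one member called higher, and by 14.2% in EpiLCs (0.19 ± 0.044, adjusted p = 0.00215). Nop10, the smallest protein of the complex, was measured at 27.9, 30.2 and 32.5 CPM in the Neg ESC libraries and 38.6, 37.7 and 39.5 CPM in the 3xKD ESC libraries. EpiLCs had 32.5, 30.4 and 31.8 CPM in Neg and 45.4, 42.5 and 43.5 CPM in 3xKD libraries. The groups did not overlap in either state, and it rose by 27.3% and 38.7%. Gar1, which is needed for catalysis, fell by 21.7% (-0.35 ± 0.069) and 25.03% (-0.42 ± 0.065). Nhp2, which binds the guide RNA, fell by 19.4% and 17.5% (-0.31 ± 0.040 and -0.28 ± 0.039).

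The transcripts of Dkc1 differed in their values. Dkc1-210, annotated as a target of nonsense-mediated decay, was estimated at 59.9 ± 13.2 TPM (SD, n = 3) in Neg ESCs and 128 ± 6.85 TPM in 3xKD ESCs. In EpiLCs it was estimated at 59.7 ± 8.75 TPM in Neg and 103 ± 14.9 TPM in 3xKD cells. The libraries of the 2 lines did not overlap in either state. Dkc1-201, the main coding transcript, stood at 47.5 ± 9.51 TPM in Neg ESCs, 60.2 ± 5.99 TPM in 3xKD ESCs, 63.3 ± 5.43 TPM in Neg EpiLCs and 65.1 ± 8.50 TPM in 3xKD EpiLCs, with overlapping lines in each state. The retained-intron transcript Dkc1-206 went from 1.82 ± 0.95 to 8.32 ± 1.31 TPM in ESCs, and in EpiLCs from 2.52 ± 0.35 to 7.89 ± 0.80 TPM, without overlap and at a low level. Of the 10 Dkc1 transcripts with a mean of at least 1 TPM, 3 went the other way without overlap in EpiLCs. Dkc1-212, with no defined coding sequence, was at 25.8, 23.4 and 14.1 TPM in Neg EpiLCs and listed at 0 in all 3xKD EpiLC libraries. The coding Dkc1-202, at 3.49 to 6.57 TPM in Neg EpiLCs, was listed at 0 there too, and a retained-intron transcript other than Dkc1-206 had a mean of 3.90 TPM in Neg and 0.37 TPM in 3xKD EpiLCs. With counts of coding transcripts alone the log2 fold change of Dkc1 in ESCs was 0.47 (adjusted p = 6.65e-07), under the fold limit. A TPM is a share of its library's length-scaled total and transcript estimates of 1 gene share reads, so these values are a description with no test.

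**Figure D2:**
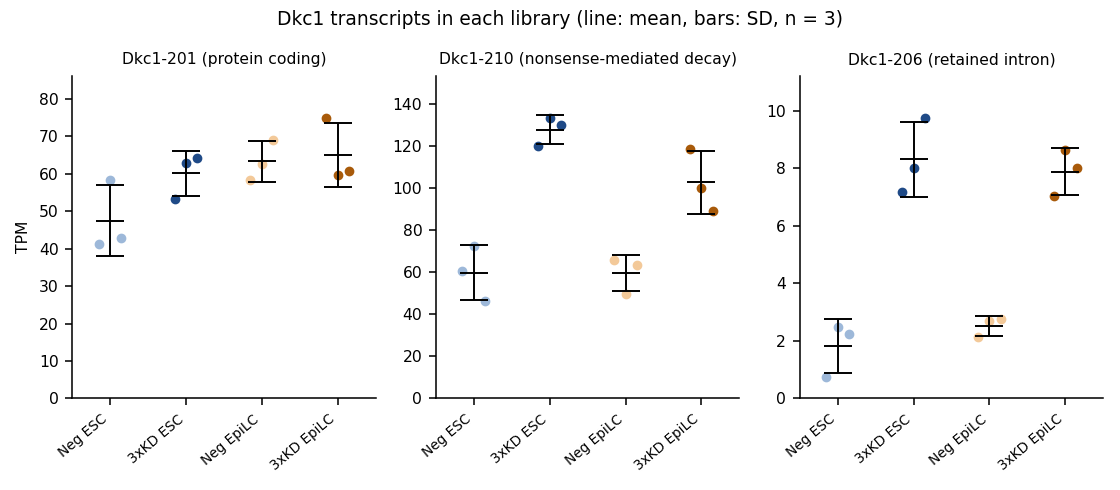
TPM of 3 Dkc1 transcripts in each library, by group, with the mean as a line and bars for the SD (n = 3). Dkc1-210 and Dkc1-206 are higher in every 3xKD library than in every Neg library of the same state, and Dkc1-201 overlaps.

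Of the nucleolar scaffold proteins, 4 of 5 fell in each state, all inside the fold limit, with log2 fold changes from -0.52 to -0.011 in ESCs, and in EpiLCs from -0.47 to -0.10. Ddx21, a helicase at ribosomal DNA, fell most in ESCs, by 30.04% (-0.52 ± 0.038), and by 26.5% in EpiLCs. Nolc1, the snoRNP chaperone Nopp140, fell most in EpiLCs, by 27.97% (-0.47 ± 0.042), and by 24.8% in ESCs. With counts of its coding transcripts alone neither change passed the test. The log2 fold changes were then 0.15 in ESCs (adjusted p = 0.611) and -0.34 in EpiLCs (adjusted p = 0.198). Mybbp1a, which binds Pol I, fell by 12.6% and 27%. Ncl (nucleolin) fell by 15.4% and 15.3%, and counts of its coding transcripts alone gave log2 fold changes of -0.70 (adjusted p = 3.47e-08) and -0.76 (adjusted p = 1.62e-08), past the fold limit in both states. Npm1 (nucleophosmin), the most abundant of the 54 per length at a mean of 942 TPM, was measured at 1590.0, 1521 and 1477 CPM in the Neg ESC libraries and 1541, 1506 and 1504 CPM in the 3xKD ESC libraries. Its values in EpiLCs were 1844, 1662 and 1759 CPM in Neg and 1599, 1587 and 1711 CPM in 3xKD libraries. The groups overlapped in both states, with log2 fold changes of -0.011 ± 0.043 (adjusted p = 0.873) and -0.10 ± 0.043 (adjusted p = 0.0649). Npm1 has processed pseudogenes in the mouse genome, and the authors' counting can split its reads with them.

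All 8 genes of the UTP-A and UTP-B complexes, which join the 5' end of the precursor first, were lower in 3xKD cells, and 7 fell in ESCs and 8 in EpiLCs. Utp4, a WD-repeat protein of UTP-A, was measured at 158, 171 and 156 CPM in the Neg ESC libraries and 109.7, 106 and 111.1 CPM in the 3xKD ESC libraries. The EpiLC values were 204, 183 and 201 CPM in Neg and 129, 125 and 124 CPM in 3xKD libraries. The lines did not overlap in either state, with log2 fold changes of -0.57 ± 0.045 in ESCs, just short of the fold limit, and -0.64 ± 0.045 in EpiLCs, where it was called. Without Neg ESC replicate 1, Neg ESC replicate 3 or 3xKD ESC replicate 3 the value in ESCs was -0.59, -0.60 and -0.59, past the limit, as it was in 3 of the 11 other fits. Wdr43 fell by 32% in ESCs (past the limit at -0.64 with coding transcripts alone) and was called lower in EpiLCs (-0.63 ± 0.036), a call lost with library size alone (-0.57) and with length offsets (-0.54). Wdr75 fell by 26.99% and was called lower in EpiLCs (-0.60 ± 0.035), a call lost with no count filter (-0.56), with library size alone (-0.54), with length offsets (-0.43) and without Neg EpiLC replicate 1 (-0.57). Heatr1, the largest protein of UTP-A, fell least of the 5 in ESCs, by 24.3% (-0.40 ± 0.044), and by 31.9% in EpiLCs. Utp15 fell least in EpiLCs, by 25.5% (-0.42 ± 0.047), and by 31.4% in ESCs.

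In UTP-B, Utp6 fell most in ESCs, by 20.5% (-0.33 ± 0.035), and by 15.97% in EpiLCs. Utp18, which calls in the exosome helicase for the spacer, fell most in EpiLCs, by 31.3% (-0.54 ± 0.047), and by 20.2% in ESCs; without Neg EpiLC replicate 2 the value in EpiLCs was -0.58 and past the limit. Wdr36, the mammalian Utp21, had the smallest change, -0.087 ± 0.034 in ESCs (adjusted p = 0.0496) and -0.14 ± 0.033 in EpiLCs (adjusted p = 0.00248).

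The other SSU processome factors all fell in ESCs and 6 of 7 fell in EpiLCs. Utp20 (ENSMUSG00000004356, chr10:88582469-88662699), a large HEAT-repeat protein, was measured at 324, 329 and 337 CPM in the Neg ESC libraries and 217, 225 and 235 CPM in the 3xKD ESC libraries. After the transition it was at 564, 543 and 557 CPM in Neg and 302, 298 and 282 CPM in 3xKD libraries. The 3xKD EpiLC libraries lay below the Neg ESC libraries, while Neg EpiLCs held the highest values. Its log2 fold change was -0.55 ± 0.037 in ESCs (-0.64 and past the limit with length offsets) and -0.91 ± 0.037 in EpiLCs, where it was called. Utp14a (ENSMUSG00000063785, chrX:47345702-47372132), which activates the helicase Dhx37, was measured at 84.8, 81.1 and 78.5 CPM in the Neg ESC libraries and 54, 50.97 and 50.6 CPM in the 3xKD ESC libraries. EpiLCs had 172, 162 and 166 CPM in Neg and 108, 106 and 106 CPM in 3xKD libraries. Within a state the lines were well apart, and both EpiLC groups were above both ESC groups. It was called lower in both, at -0.65 ± 0.042 and -0.64 ± 0.039. Of the rest, Utp3 fell by 26.5% in ESCs and stood at -0.18 ± 0.063 in EpiLCs (adjusted p = 0.0356), which did not pass. Rrp9, the U3-specific protein, had the smallest change in ESCs (-0.20 ± 0.039) and fell by 14.4% in EpiLCs. The scaffold Nop14 fell by 13.8% and 24.96%, the RNA acetyltransferase Nat10 by 19.2% and 11.9%, and the helicase Ddx10 by 22.4% and 16.02%.

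All 4 factors of 40S maturation fell in both states. Tsr1 (ENSMUSG00000038335, chr11:74787994-74801270), a GTPase-like protein that sits on the late pre-40S particle, was measured at 173, 175 and 184 CPM in the Neg ESC libraries and 109, 103 and 104 CPM in the 3xKD ESC libraries. Its values in EpiLCs were 275, 262 and 277 CPM in Neg and 156, 161 and 161 CPM in 3xKD libraries. The lines did not overlap in either state, and 3xKD EpiLCs were under Neg ESCs. It was called lower at -0.75 ± 0.037 (adjusted p = 1.36e-10) and -0.77 ± 0.036 (adjusted p = 8.74e-11). Bysl (bystin) fell by 32.7% and 32.8%, with log2 fold changes of -0.57 ± 0.043 and -0.57 ± 0.041 just short of the limit. Without 3xKD ESC replicate 3 Bysl stood at -0.60 in ESCs, and without Neg EpiLC replicate 1, Neg EpiLC replicate 2 or 3xKD EpiLC replicate 3 at -0.58, -0.59 and -0.59 in EpiLCs, each time past the limit, as were 2 of the 11 other fits in each state. Rrp12, an export factor, had the smallest change in ESCs (-0.32 ± 0.038) and fell by 29.2% in EpiLCs. Ltv1 had the smallest change in EpiLCs (-0.39 ± 0.052) and fell by 20.8% in ESCs.

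Of the 12 factors of 60S maturation, 10 fell in ESCs and 11 in EpiLCs, and the same 4 were called lower in both states: Nifk, Rrp1b, Rrs1 and Nop2. Nifk (ENSMUSG00000026377, chr1:118249564-118261561), which binds the proliferation antigen Ki-67, was measured at 72.6, 70.9 and 70.97 CPM in the Neg ESC libraries and 39.1, 35.97 and 37.8 CPM in the 3xKD ESC libraries. The EpiLC values were 106, 92.1 and 103 CPM in Neg and 52.4, 50.6 and 54.01 CPM in 3xKD libraries. The 3xKD EpiLC libraries were all below the Neg ESC libraries. It fell by 47.3% in ESCs (-0.92 ± 0.054, adjusted p = 8.21e-10) and by 47.8% in EpiLCs (-0.94 ± 0.052, adjusted p = 4.99e-10). Rrp1b (ENSMUSG00000058392, chr17:32255073-32282540), one of the mammalian copies of yeast Rrp1, was measured at 126, 124 and 127 CPM in the Neg ESC libraries and 69.98, 70.2 and 69.9 CPM in the 3xKD ESC libraries. After the transition it was at 212, 195 and 207 CPM in Neg and 111.3, 112 and 112 CPM in 3xKD libraries. The replicates of each 3xKD group were within 1 CPM of each other and well under those of Neg cells. Its log2 fold changes were -0.84 ± 0.036 and -0.88 ± 0.034, but transcript-length offsets gave -0.36 and -0.25 and ended both calls, while coding transcripts alone gave -1.38 and -1.48.

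Rrs1 (ENSMUSG00000061024, chr1:9615633-9617680), which brings the 5S particle to the pre-60S, was measured at 84.9, 83.3 and 83.2 CPM in the Neg ESC libraries and 52.04, 51.8 and 48.5 CPM in the 3xKD ESC libraries. EpiLCs had 103, 88.7 and 101 CPM in Neg and 55.7, 60.7 and 60.6 CPM in 3xKD libraries. The lines did not overlap, and 3xKD EpiLCs were under Neg ESCs. Its log2 fold changes were -0.72 ± 0.056 and -0.73 ± 0.055. Nop2 (ENSMUSG00000038279, chr6:125108816-125121717), a cytosine methyltransferase of the large rRNA, was measured at 218, 215 and 228 CPM in the Neg ESC libraries and 138, 139 and 135 CPM in the 3xKD ESC libraries. Its values in EpiLCs were 327, 298 and 315 CPM in Neg and 192, 197 and 194 CPM in 3xKD libraries. Here too 3xKD EpiLCs were under Neg ESCs in every library. Its log2 fold changes were -0.69 ± 0.037 and -0.69 ± 0.036. Wdr74 was called lower in EpiLCs at -0.59 ± 0.044, the value nearest to the limit, and this call was lost in 8 of the 11 other fits (-0.53 to -0.58) and without Neg EpiLC replicate 1 (-0.55) or 3xKD EpiLC replicate 1 (-0.57); in ESCs it fell by 29.04% and was past the limit at -0.76 with coding transcripts alone. Nop16, at a mean of 12.2 TPM, was called lower in EpiLCs at -0.63 ± 0.11, a call lost with library size alone (-0.57), with length offsets (-0.52) and without Neg EpiLC replicate 1 (-0.54) or 3xKD EpiLC replicate 2 (-0.53), and it fell by 23.99% in ESCs. Gnl2 and Gnl3 (nucleostemin), nucleolar GTPases, fell by 24.5% and 15.5% in ESCs, and in EpiLCs Gnl2 fell by 22.7% while Gnl3 stood at -0.14 ± 0.043 (adjusted p = 0.0139).

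Pes1, Bop1 and Wdr12 form the PeBoW complex, and their changes were small. Pes1 had the smallest change of the step, -0.028 ± 0.034 in ESCs (adjusted p = 0.573), and fell by 12.6% in EpiLCs. Bop1 stood at -0.079 ± 0.038 in ESCs (adjusted p = 0.12) and fell by 13.5% in EpiLCs. Wdr12 fell by 14.3% and 20.4%. Rrp1, the paralogue of Rrp1b, fell by 11.7% and 19.6%.

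**Figure D3:**
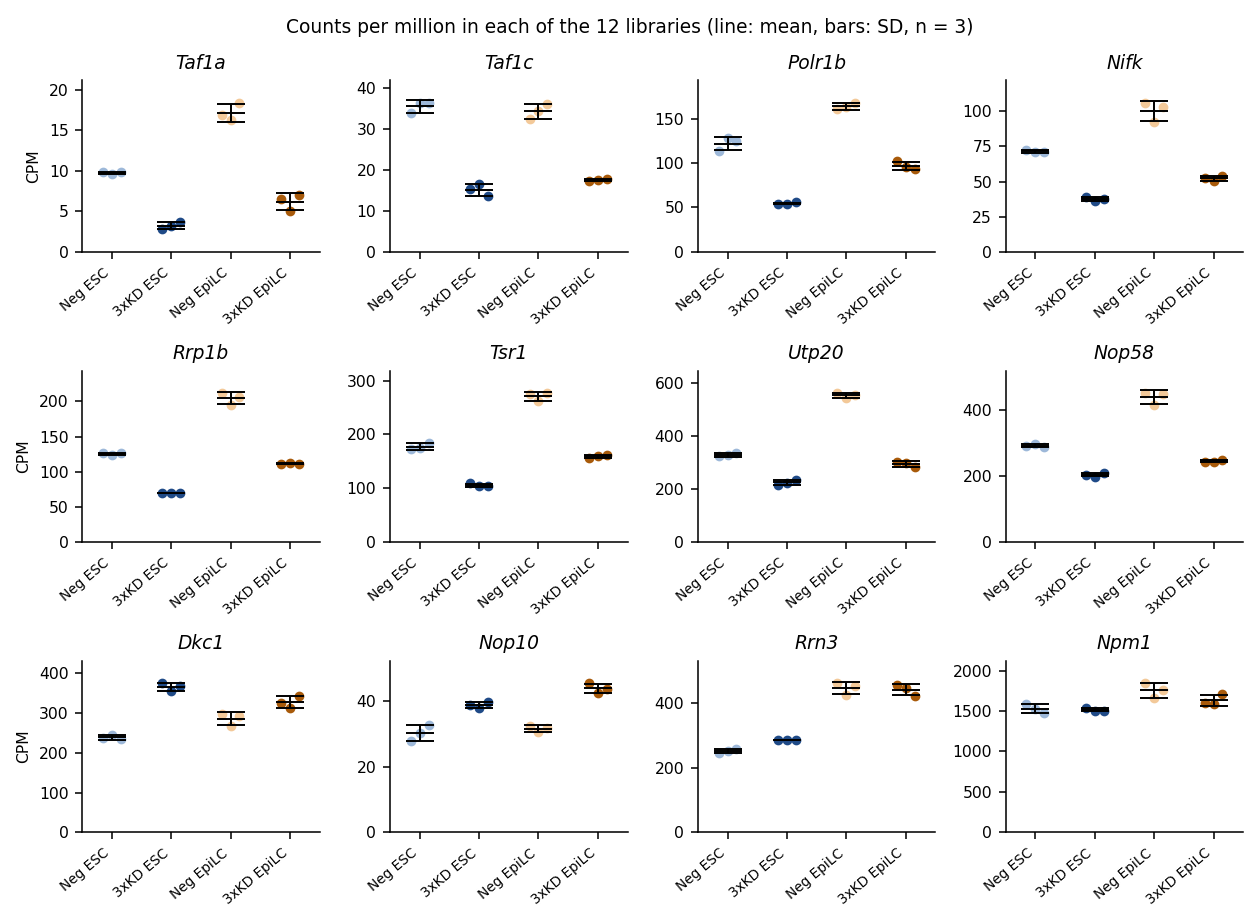
CPM of 12 members in each of the 12 libraries, with the group mean as a line and bars for the SD (n = 3); each axis starts at 0. In the first 8 genes both 3xKD groups lie below the Neg group of the same state, Dkc1 and Nop10 lie above it, Rrn3 lies above it in ESCs alone, and Npm1 overlaps.

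The 3xKD effect differed between the states for 6 of the 54 genes (interaction at an adjusted p under 0.01), which is 11.1% of the members against 10% of all genes tested and 16.8% of the 15032 genes that, like all members, average at least 1 CPM. Given as the effect in EpiLCs minus the effect in ESCs on the log2 scale, the difference was -0.42 ± 0.062 (SE) for Dkc1, -0.37 ± 0.052 for Utp20, -0.36 ± 0.057 for Polr1a, -0.32 ± 0.051 for Nop58, -0.26 ± 0.048 for Mybbp1a and 0.41 ± 0.065 for Polr1b. Polr1b was thus the one gene whose decrease was smaller in EpiLCs; Dkc1 rose less there, and the others fell more. Polr1a and Polr1b, the subunits of the catalytic centre, moved in opposite directions in this respect. Coding transcripts alone gave -0.013 for Polr1a, but coding transcripts held a mean of 10.2% of its TPM in Neg ESCs and 8.84% in 3xKD ESCs. With transcript-length offsets the differences of Polr1b and Nop58 kept their size (0.41 and -0.33) and those of Polr1a and Utp20 shrank to -0.23 and -0.29, and none of the 4 passed the test. Library size alone ended the call of Mybbp1a at -0.19. The number of genes with a more negative effect in EpiLCs was 5, but 11 without Neg EpiLC replicate 2 and 9 without 3xKD EpiLC replicate 3, and the number with a more positive one was 1, but 3 without 3xKD EpiLC replicate 1. Nop56 had a smaller decrease in EpiLCs by 0.19 to 0.28 in 8 of the 10 other fits made for this difference and by 0.22 without 3xKD EpiLC replicate 1, which also added Ubtf at 0.19. Leaving out Neg EpiLC replicate 2 added Rrn3, Fbl, Wdr75, Utp18, Nop14 and Pes1, and leaving out 3xKD EpiLC replicate 3 added Fbl, Nop14, Pes1 and Rrp1, with differences of -0.29 to -0.19.

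From ESCs to EpiLCs, most members rose in both lines. In Neg cells 42 rose and 1 fell at an adjusted p under 0.01, against 17.5% and 18.2% of all genes, with a median log2 fold change of 0.44 against 0.011 for all genes. With the fold limit 16 were called higher, where 9.78% of all genes were, and none was called lower by edgeR or DESeq2, where 11% of all genes were and where 3 members were lower at an unadjusted p under 0.05. Among the 15032 genes that average at least 1 CPM, 26.95% rose and 28.9% fell, and 13.9% were called higher and 16.7% lower. Utp14a rose most, from 81.5 ± 3.196 to 166 ± 4.92 CPM (SD, n = 3; log2 fold change 1.03 ± 0.039), followed by Rrp12 at 0.96 ± 0.037, Rrn3 at 0.83 ± 0.038, Taf1a at 0.81 ± 0.12 and Ddx21 at 0.80 ± 0.038. Ubtf was the member that fell, by 27.4% (-0.46 ± 0.031), and Nop16 stood at -0.35 ± 0.11 (adjusted p = 0.0148). The 5 scaffold genes, the 4 genes of 40S maturation and the 3 of box C/D snoRNPs all rose, while in the initiation factors Taf1b and Taf1c stood at -0.043 and -0.053. Nop58, at 0.59, was under the fold limit without Neg ESC replicate 3 (0.58) or Neg EpiLC replicate 3 (0.57). Gar1 was past it without Neg ESC replicate 1, 3xKD ESC replicate 1, Neg EpiLC replicate 2 or 3xKD EpiLC replicate 3 (0.58 to 0.63), and Nifk without Neg EpiLC replicate 2 (0.58).

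In 3xKD cells 40 members rose and 3 fell, against 15.9% and 17.9% of all genes, and 15 were called higher and 1 lower, against 9.42% and 9.32%. Among the 15032 genes that average at least 1 CPM, 24.6% rose and 28.8% fell, and 13.6% were called higher and 14.3% lower. The median log2 fold change was 0.29. Utp14a again rose most, from 51.9 ± 1.88 to 106 ± 1.4 CPM (1.04 ± 0.041), with Taf1a at 0.93 ± 0.14, Ddx21 at 0.87 ± 0.038, Nop56 at 0.83 ± 0.035 and Polr1b at 0.83 ± 0.048. Ubtf and Dkc1 fell by 18.5% and 10.8%. Nop16 was called lower at -0.59 ± 0.11, a call that 7 of the 11 other fits did not make and that was lost without 3xKD ESC replicate 2 (-0.52), Neg EpiLC replicate 1 (-0.57), Neg EpiLC replicate 2 (-0.57) or 3xKD EpiLC replicate 2 (-0.49). Heatr1, at 0.58 ± 0.043, was called higher in 7 of the 11 other fits and without any one of 5 libraries (0.59 to 0.61: 3xKD ESC replicates 1 and 3, Neg EpiLC replicates 1 and 2, 3xKD EpiLC replicate 3). The call of Wdr74 was lost without 3xKD ESC replicate 1 (0.55) or 3xKD EpiLC replicate 2 (0.57), and that of Gnl3 without 3xKD ESC replicate 3 (0.55). These transitions share libraries with the comparisons above, and the difference between the lines is the difference between the states already given. By step, the medians in Neg and 3xKD cells were 0.59 and 0.27 for box C/D proteins, 0.56 and 0.55 for 40S maturation, 0.50 and 0.49 for the scaffold and 0.42 and 0.25 for Pol I subunits. The initiation factors were the lowest in Neg cells at 0.15, and the other SSU processome factors in 3xKD cells at 0.16.

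**Figure D4:**
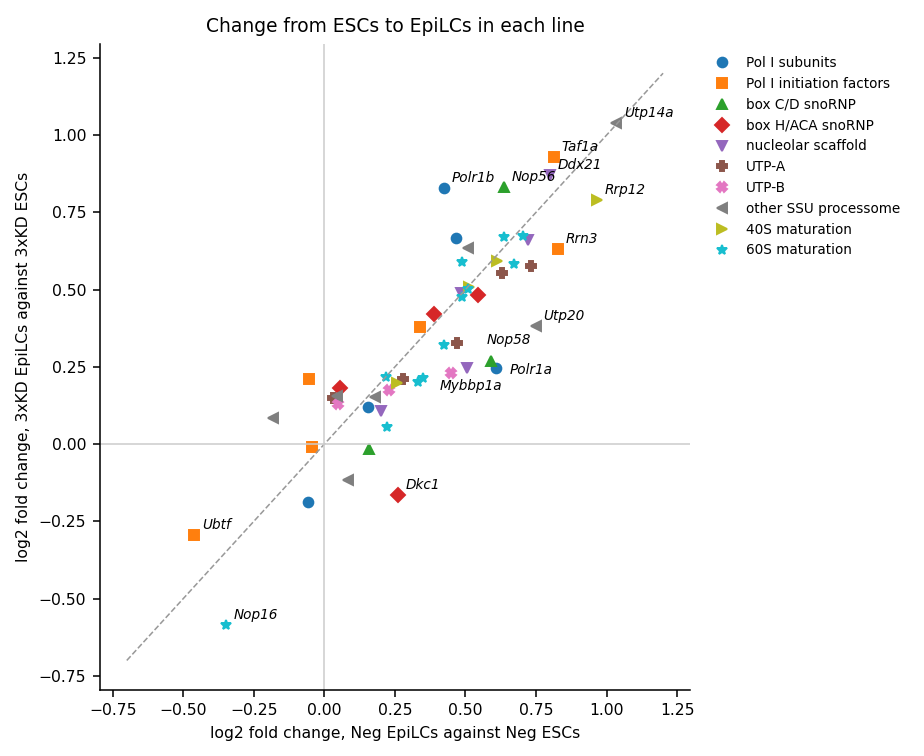
Log2 fold change from ESCs to EpiLCs in Neg cells (x axis) against 3xKD cells (y axis) for the 54 genes, with symbols for the steps and a dashed line of equal change. Most points lie above 0 on both axes; Polr1b lies above the line, and Dkc1, Utp20, Nop58, Polr1a and Mybbp1a lie below it.

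Further genes of the pathway, listed by known role, were mostly lower too. Of 87 such genes 65 fell and 1 rose in ESCs and 74 fell and 1 rose in EpiLCs, with medians of -0.32 and -0.36, and 19 were called lower in each state. The shares that fell were 74.7% and 85.1%, against 16% and 15.6% of all genes tested. The share called lower was 21.8% in each state, against 6.76% and 5.35%. Among genes that average at least 1 CPM, 26.1% and 25.9% fell, and 10.53% and 8.57% were called lower. The 3 further Pol I subunits had medians of -0.55 and -0.69, and Polr1g, one of them, stood at -0.89 ± 0.065 in ESCs and -0.82 ± 0.065 in EpiLCs. Dhx37, a helicase of the 40S path, stood at -0.98 ± 0.057 in ESCs and -0.78 ± 0.056 in EpiLCs. Ddx52, another such helicase, stood at -0.89 ± 0.046 in ESCs and -0.78 ± 0.044 in EpiLCs, and the kinase Riok2 at -0.73 ± 0.038 in ESCs and -0.67 ± 0.038 in EpiLCs. All were called lower in both states. For the 60S path, Ddx51 stood at -0.90 ± 0.060 in ESCs and -0.80 ± 0.058 in EpiLCs, Rbm34 at -0.78 ± 0.067 in ESCs and -0.89 ± 0.064 in EpiLCs and Mak16 at -0.71 ± 0.058 in ESCs and -0.81 ± 0.057 in EpiLCs. The list of 40 genes of the 40S path had medians of -0.33 and -0.37, and the 44 of the 60S path -0.28 and -0.34.

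Medians are also given for the other polymerases and the ribosomal proteins. The 10 Pol III subunits had medians of -0.27 and -0.32, and Polr3f (-0.76 ± 0.064 in ESCs and -0.71 ± 0.064 in EpiLCs) and Polr3d (-0.60 ± 0.074 in ESCs and -0.71 ± 0.072 in EpiLCs) were called lower in both states. The 7 Pol II subunits had medians of -0.17 and -0.23, and the 5 subunits common to all 3 polymerases -0.051 and 0.089. The 78 cytosolic ribosomal protein genes had medians of 0.12 and 0.056, with values above 0 for 74 of them in ESCs and 57 in EpiLCs, of which 21 and 12 rose. These are 26.9% and 15.4% of the list, against 15.6% and 14.3% of all genes tested. Among the 15032 genes that average at least 1 CPM, 25.15% and 23.2% rose. Noncoding host genes of small nucleolar RNAs (14 genes for 13 symbols, since Snhg4 names 2 genes) had medians of 0.27 and -0.050. No test was made of one list against another.

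**Figure D5:**
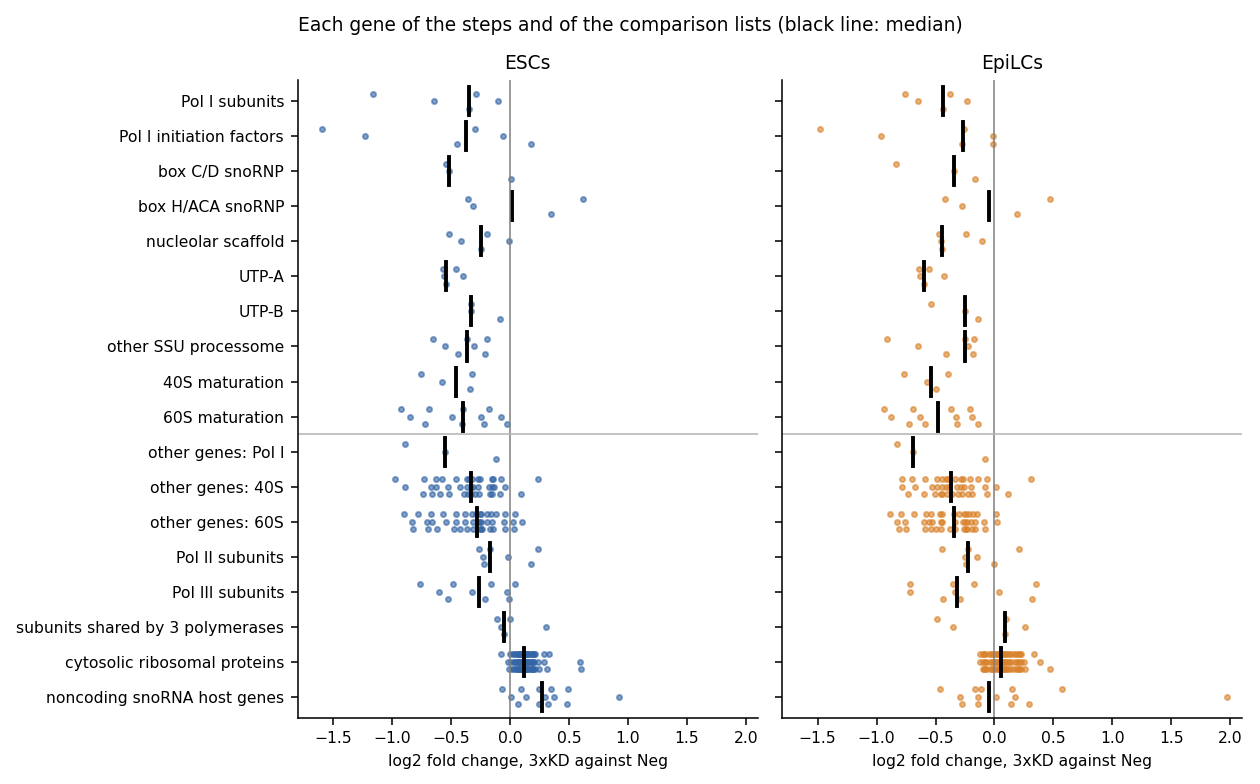
Log2 fold change in 3xKD against Neg cells of each gene in the 10 steps (above the grey line) and in the comparison lists (below it), with a black line at each median, in ESCs (left) and EpiLCs (right). Medians of the steps other than box H/ACA lie between -0.60 and -0.24, and those of the cytosolic ribosomal proteins at 0.12 and 0.056.

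Features that the choice of genes did not use were also compared. The members lie on all 19 autosomes and X, with 8 on chromosome 11 and 7 on chromosome 1. In total, 8 of them (Nop58, Ncl, Nop56, Taf1d, Tsr1, Gnl3, Wdr43 and Dkc1) hold 29 annotated small nucleolar RNA genes within their bounds, and the median of these hosts was -0.38 for ESCs and -0.29 for EpiLCs, that of the other 46 members -0.36 and -0.42. Levels per length spanned from 2.93 TPM for Taf1a, 5.84 for Taf1c and 11.4 for Taf1b, as means over 12 libraries, to 254 for Nop56, 324 for Ncl and 942 for Npm1. The genes with the largest decreases, Taf1a and Taf1c, were thus also the 2 with the lowest levels.

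The makeup of transcripts was a further readout. Of 45 members with both coding and other transcripts, 12 in ESCs and 11 in EpiLCs (26.7% and 24.4%) had a lower share of TPM on coding transcripts in each 3xKD library than in any Neg library, against 14.2% and 13.9% of the 10206 genes of this kind that average at least 1 CPM. A higher share was seen for 2 and 1 members (4.44% and 2.22%), against 4.25% and 3.96%. Rrp1b went from 16.9% ± 3.24 (SD, n = 3) to 8.32% ± 1.98 in ESCs, and in EpiLCs from 21.5% ± 0.821 to 8.88% ± 1.46. Ncl went from 14.5% ± 0.239 to 9.66% ± 0.1198 in ESCs, and in EpiLCs from 15.8% ± 0.408 to 10.7% ± 0.213. Both changed the same way in each state, with no overlap of the libraries. Polr1b went from 84.8% ± 4.204 to 71.6% ± 3.81 and from 86.5% ± 2.32 to 71.3% ± 2.47. Utp14a moved the other way, from 93.8% ± 0.778 to 96.7% ± 0.674 and from 94.5% ± 0.371 to 96.7% ± 0.2304. So did Nolc1 in ESCs, from 56.9% ± 11.1 to 77.4% ± 5.34, while its EpiLC libraries overlapped. Counted on coding transcripts alone, 13 members were called lower in ESCs and 16 in EpiLCs, with Ncl called in both states and Dkc1 no longer called.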

How the data were processed

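The authors sequenced rRNA-depleted, directional, single-end libraries. Per the labels and the methods, reads were trimmed with Trim Galore 0.6.7, mapped to GRCm39 with STAR 2.7.9a and quantified per transcript with Salmon 1.10.1; the labels also call the molecule polyA RNA. The deposited tables hold estimated counts, which are not whole, and TPM per transcript. For each gene the estimated counts of its transcripts were added and rounded to whole numbers, and TPM were added for levels between genes. Genes with at least 10 counts in total (25446 of 57180) were fitted over all 12 libraries with the edgeR 4.0.16 quasi-likelihood test (R 4.3.3) and TMM factors, without transcript-length offsets, with Benjamini-Hochberg adjustment over all genes. The limits were those of the study, 0.01 for the adjusted p and 0.58 for the size of the log2 fold change. The difference between states used the adjusted p alone. SEs were derived from the F statistic. CPM were scaled by TMM factors. Totals of 11221023 to 19652197 estimated counts set the precision of low genes. Replicates differed by more than sampling noise, with chi-square per degree of freedom of 2.99 to 18.4, so none was taken as a duplicate. The scripts were tested on simulated data.

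The members and lists were chosen with earlier results of these data known. All 54 members are named by step. Values are given for the largest and smallest change of each step, for each called member and for each state difference, every-library values for the 12 largest and 4 smallest mean absolute changes (others, such as Dkc1 and Nop10, were added after their values were seen), and up to 3 genes called in both states from each other list. Alternatives were DESeq2 1.42.0, RLE, upper-quartile or no scaling factors, filterByExpr, no filter, transcript-length offsets, a replicate block, robust estimation, fits of only the groups compared, other thresholds, each library left out, and, chosen after seeing the data, coding transcripts only (GENCODE vM39). Promoter windows came from RefSeq on GRCm38.p6, a build other than that of the gene coordinates, which are on GRCm39.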

Additional observations from a re-analysis of the deposited data

Results flagged for a closer look

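The 3xKD effect, as log2 fold change in EpiLCs minus that in ESCs, differed between the 2 states for 6 members by the interaction test in edgeR (adjusted p under 0.01, n = 3 per group). The difference was -0.36 for Polr1a, 0.41 for Polr1b, -0.32 for Nop58, -0.42 for Dkc1, -0.26 for Mybbp1a and -0.37 for Utp20. The share of members was 11.1%, against 10% of all genes tested and 16.8% of the 15032 genes that average at least 1 CPM.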

How the results depend on the processing

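Of 54 members, 10 were called lower in ESCs (10 to 12 with any one library left out), and 44 with no fold limit. The 1 called higher remained 1 with each library left out and became 0 with coding transcripts alone and 3 with no fold limit. In EpiLCs 17 were called lower (15 to 19), 11 with transcript-length offsets and 45 with no fold limit, and 0 were called higher (0 to 0), 2 with no fold limit. From ESCs to EpiLCs, 0 Neg members were called lower (0 to 0), 1 with no fold limit, and 16 higher (15 to 18), 42 with no fold limit. In 3xKD cells 1 was called lower (0 to 1), namely 0 with DESeq2, filterByExpr, no filter, RLE or upper-quartile factors, library size alone and transcript-length offsets, and 3 with no fold limit, and 15 higher (14 to 16), 40 with no fold limit. State differences toward lower values in EpiLCs numbered 5 (5 to 11), 2 with transcript-length offsets. Those toward higher values numbered 1 (1 to 3), 3 with DESeq2, library size alone, filterByExpr, no filter and coding transcripts alone, 2 with RLE factors, upper-quartile factors and robust estimation, and 0 with transcript-length offsets. Further single calls changed. In the Neg transition, calls were lost for Polr1a with library size alone (0.57) and length offsets (0.41), for Nop58 (0.55) and Tsr1 (0.58) with library size alone, for Heatr1 (0.50) and Rrp1b (0.56) with length offsets and for Wdr74 (0.57) with coding transcripts alone. Calls were gained with upper-quartile factors for Gar1 (0.63), Mybbp1a, Nat10, Bysl and Nop2 (0.59 each), and with coding transcripts for Ncl (0.58). In the 3xKD transition, Wdr43 was gained in 5 fits (0.58 to 0.63), Bysl with upper-quartile factors (0.58) and Polr1a with coding transcripts (0.63), which lost Nolc1 (0.50). For the state difference, Ubtf was gained in 4 fits (0.18 to 0.24), Rrn3 in 3 (-0.21 to -0.19), Utp3 with no filter (0.29) and Pes1 with upper-quartile factors (-0.18). The causes were not tested. No scaling moved the median of the genes that average at least 1 CPM by more than 0.1.

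Medians by step stayed negative, box H/ACA aside. Transcript-length offsets moved them beyond the spread of libraries in ESCs for box C/D (-0.46), scaffold (-0.18), UTP-A (-0.40) and 60S maturation (-0.34), and in EpiLCs for Pol I subunits (-0.52), box C/D (-0.47), UTP-A (-0.45) and 60S maturation (-0.40). Coding transcripts alone moved Pol I subunits (-0.53), scaffold (-0.19) and other SSU factors (-0.44) in ESCs and initiation factors (-0.35) in EpiLCs, and library size alone Pol I subunits (-0.38) and 40S maturation (-0.48) in EpiLCs. With each library left out, medians in ESCs and EpiLCs ranged over -0.38 to -0.33 and -0.46 to -0.38 for all members, -0.39 to -0.29 and -0.49 to -0.41 for Pol I subunits, -0.41 to -0.33 and -0.29 to -0.23 for Pol I initiation factors, -0.54 to -0.49 and -0.37 to -0.31 for box C/D snoRNP, -0.0072 to 0.048 and -0.073 to -0.0025 for box H/ACA snoRNP, -0.26 to -0.21 and -0.47 to -0.41 for nucleolar scaffold, -0.56 to -0.51 and -0.62 to -0.57 for UTP-A, -0.34 to -0.30 and -0.27 to -0.23 for UTP-B, -0.38 to -0.33 and -0.27 to -0.23 for other SSU processome, -0.49 to -0.41 and -0.54 to -0.52 for 40S maturation, -0.45 to -0.34 and -0.49 to -0.44 for 60S maturation.

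With the replicate number as a block, the counts were 10 lower and 1 higher in ESCs, 17 and 0 in EpiLCs, 0 and 16 in the Neg transition, 1 and 15 in the 3xKD transition and 5 and 1 for the state difference, the same as without it. Deviations of same-numbered libraries correlated between -0.13 and 0.10 over 18 pairs, and those of 36 other pairs between -0.15 and 0.18. Of 12 libraries 3 correlated best with their own number. With few libraries in a group, these values cannot tell whether same-numbered libraries shared a culture or batch, which the labels do not state.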

Other observations

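Genes within 50 kb of the 3 members with the largest decreases averaged over the states were read off after their values were seen, with adjusted p from edgeR's test over all genes. Mia3, beside Taf1a, had log2 fold changes in 3xKD against Neg cells of 0.0051 in ESCs and -0.042 in EpiLCs. Beside Taf1c, Mbtps1 stood at -0.30 (adjusted p = 1.37e-06) and -0.16 (adjusted p = 0.000892), Hsdl1 at 0.11 and 0.082 (adjusted p = 0.312 and 0.491), and Adad2 at 0.35 and -0.12 (adjusted p = 0.0138 and 0.448). Beside Polr1b, Ttl stood at -0.74 in ESCs (adjusted p = 5.13e-07) and 0.088 in EpiLCs (adjusted p = 0.44), and Chchd5 at 0.42 (adjusted p = 3.3e-05) and -0.14 (adjusted p = 0.0837).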
